A study of Mus musculus with 12 samples.

Results

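The transcripts of 8 integrin chains and of the hyaluronan receptor CD44 were described in group 2 innate lymphoid cells (ILC2s) of the mouse lung. The 9 genes, *Itgae*, *Itgb7*, *Itgal*, *Itgb2*, *Itga4*, *Itgb1*, *Itgav*, *Itgb3* and *Cd44*, were taken by name as a family of adhesion receptors, and all 9 were among the 24346 genes with values. RNA had been sequenced in 12 libraries, 3 in each of 4 groups. The groups were ILC2s of wild-type (WT) mice and of *Sema6d*-/- mice, labelled 6DKO, given either PBS or IL-33 into the nose for 3 days. Mice were 7 to 12 weeks old, and their strain is C57BL/6J in the methods and C57BL/6 in the labels. IL-33 is an alarmin cytokine that activates ILC2s, and Sema6D is a transmembrane semaphorin, a family of guidance molecules. The methods give 500 ng of IL-33 per mouse and day, whereas the labels give 50 ng. The cells had been sorted as CD45-positive, lineage-negative, Thy1.2-positive and ST2-positive cells, so the sort used none of the 9 genes. The labels do not say whether each library came from a separate mouse, so the p-values measure the spread between these libraries.

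Integrins are heterodimers of an α and a β chain that bind cell-surface ligands or matrix proteins, and a chain reaches the cell surface only with a partner. αEβ7 binds E-cadherin on epithelium and holds lymphocytes in mucosal tissue, α4β7 and α4β1 bind vascular addressins and fibronectin, and αLβ2 binds intercellular adhesion molecules on other leukocytes and on endothelium. The αv chain pairs with β1 or β3 to bind matrix proteins with an RGD motif and latent TGF-β, and CD44 binds hyaluronan. ILC2s are largely tissue-resident cells, and these receptors set where such cells lodge and what they touch.

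Values were FPKM, fragments divided by exon length and by those mapped in the library, in which gene length and sequencing depth are divided out and read totals are lost. Relative depth was therefore read from weakly expressed genes, with WT IL-33 replicate 3 set to 1. It was 0.739 to 0.889 in WT PBS, 0.842 to 0.998 in 6DKO PBS, 1 to 1.39 in WT IL-33 and 0.968 to 1.119 in 6DKO IL-33 libraries. Replicates also differed more under PBS, with a median SD per gene of 0.65 in WT and 0.70 in 6DKO on the log2(FPKM + 1) scale, against 0.29 and 0.28 under IL-33. Some genes used by every cell were listed at 0 in a PBS library, such as the proteasome subunit gene *Psmd13* in WT PBS replicate 2, so a 0 is given here only as listed. *Sema6d* itself was still measured in the 6DKO libraries. Its FPKM was 27.5, 46.1 and 37.5 in WT PBS, 29.0, 22.9 and 19.8 in 6DKO PBS, 19.7, 35.5 and 28.7 in WT IL-33 and 15.4, 13.6 and 13.8 in 6DKO IL-33 libraries. Its libraries were apart by genotype under IL-33 and overlapped under PBS. A gene-level value sums all exons and does not show which part of the gene was deleted.

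The libraries carried the transcripts that define lung ILC2s. All 16 ILC2 markers had a mean of at least 0.5 FPKM, and their summed level was 6787 to 10230 FPKM in each of the 12 libraries, with *Id2* the most abundant. Of the lists for other cell types, those of macrophages, NK cells and ILC1s, and epithelium stood out in 3 libraries, called marker-rich below. In 6DKO PBS replicate 2, the macrophage list summed to 188.6 FPKM, the NK cell and ILC1 list to 237.5 FPKM and the epithelial list to 258.9 FPKM, led by *Lyz2* at 111.9 FPKM, *Gzmb* at 100.4 FPKM and *Ager* at 198.8 FPKM, with *Chil3* at 51.1 FPKM. In 6DKO IL-33 replicate 2 the macrophage list summed to 427.6 FPKM, of which *Chil3* made up 393.9 FPKM, and in 6DKO IL-33 replicate 3 the macrophage and epithelial lists summed to 145.5 and 107.9 FPKM. In the other 9 libraries, the 28 genes of these 3 lists together summed to 2.60 to 44.7 FPKM. The T cell list summed to 189.7 to 483.1 FPKM in all 12 libraries, nearly all *Cd3g*. Its other genes were low, with *Cd3e* at most 9.81 FPKM and *Cd3d* at most 3.94 FPKM in a library. *Cd5*, *Cd8a*, *Cd8b1* and *Foxp3* were at most 0.393 FPKM, and *Cd4* was at 0 throughout. The dendritic cell list summed to 196.9 to 566.1 FPKM in the 6 IL-33 libraries. The lineage antibodies of the sort included those to CD3ε, CD5, CD8α, CD11c, F4/80 and NK1.1, a gate meant to remove such leukocytes. The part of these cells in the results was not tested. In bulk RNA, fewer cells of a type and less RNA per cell cannot be told apart.

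IL-33 raised 2 of the 9 genes in WT and 3 of the 9 in 6DKO ILC2s. *Itgae* and *Itgb3* were higher in both genotypes, and *Cd44* passed the test in 6DKO ILC2s. No member passed the test as lower. The test was limma on log2(FPKM + 1) over 11479 genes, with Benjamini-Hochberg adjustment over all of them and a threshold of 0.05. Among all genes tested, 4.37% passed in WT and 3.14% in 6DKO ILC2s. Between genotypes, 0 of the 9 genes passed under IL-33, where 0.00871% of all genes did, and 0 under PBS, where 0.619% did. For the interaction of genotype and IL-33, 0 of the 9 passed, against 0.0261% of all genes, and in these 3 comparisons 0 of the 9 genes had an unadjusted p under 0.05 in limma, where 1.98%, 12.998% and 5.74% of all genes tested did. The PBS and IL-33 libraries did not overlap for 5 members in WT, all higher under IL-33, where 24.9% of all genes did not overlap. In 6DKO ILC2s they did not overlap for 7 members, 6 higher and 1 lower, against 22.5% of all genes. The median log2 fold change of the members was 0.44 in WT and 0.77 in 6DKO ILC2s, beside 0.16 and 0.13 for all genes tested. That shift of all genes was −0.05 and −0.02 after quantile normalization. The members were chosen with earlier results of these data known. Their counts and medians beside all genes are therefore descriptions and not an independent comparison.

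**Figure D1:**
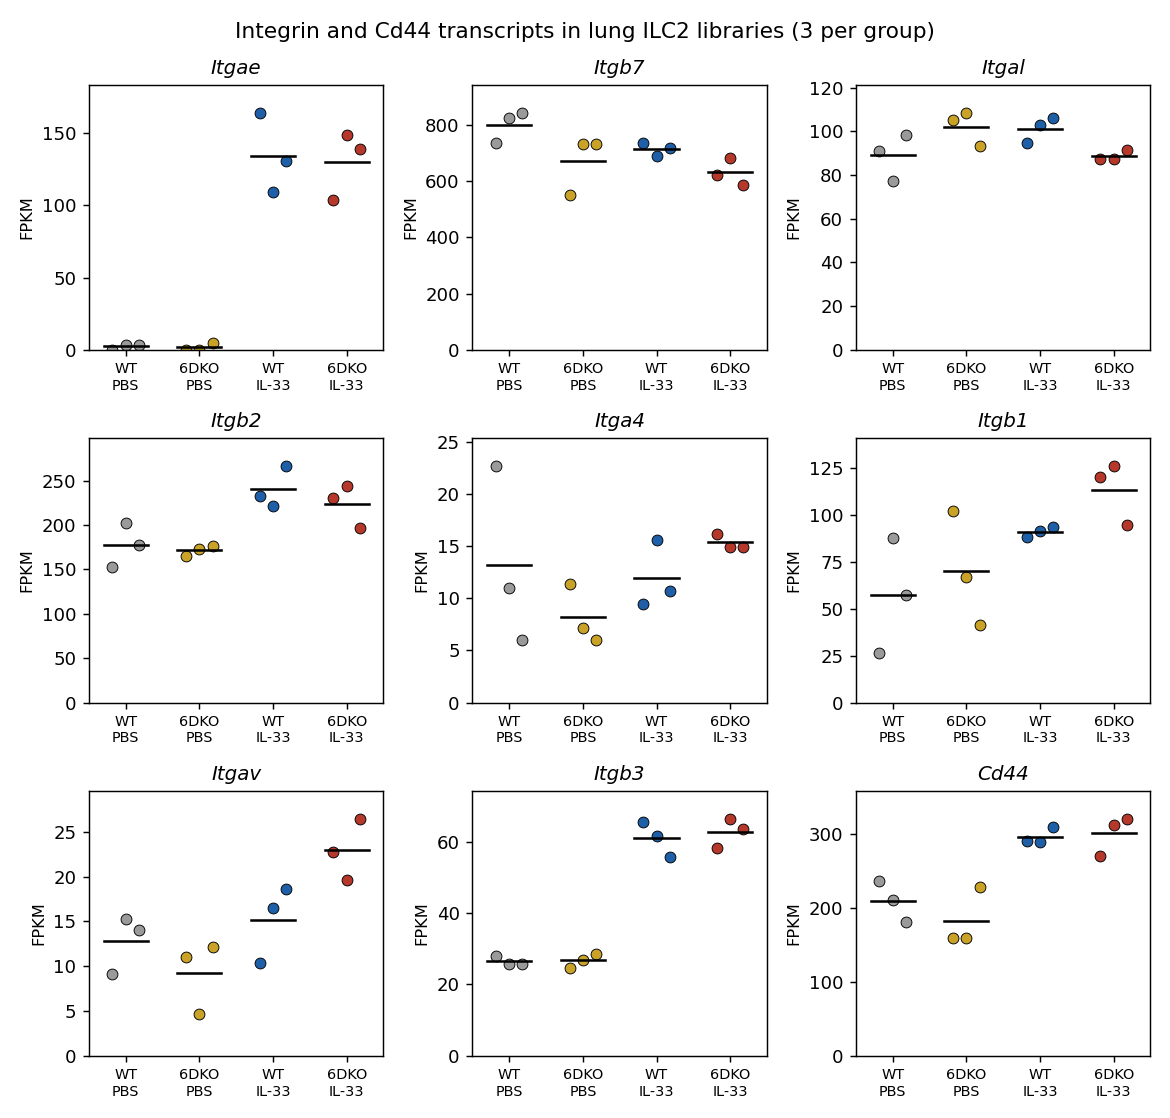
FPKM of the 9 genes in each of the 12 libraries, by genotype and treatment, with a linear axis from 0 for each gene. Points are libraries and lines are group means of 3 libraries; the IL-33 libraries of *Itgae* lie between 103.7 and 163.9 FPKM and its PBS libraries at or under 4.66 FPKM.

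*Itgae* encodes the αE chain, known as CD103, which pairs with β7 alone. The WT PBS libraries listed it at 0, 3.45 and 3.53 FPKM, and the 6DKO PBS libraries at 0, 0 and 4.66 FPKM. Under IL-33, the FPKM were 163.9, 109.1 and 130.7 for WT and 103.7, 148.8 and 138.8 for 6DKO libraries. The 6 IL-33 libraries were far above the 6 PBS libraries, and the genotypes overlapped under each treatment. The log2 fold change was 5.62 (limma standard error [SE] 0.72, adjusted p = 0.00164) in WT and 6.19 (limma SE 0.72, adjusted p = 0.00143) in 6DKO ILC2s, with 3 of 3 IL-33 libraries above all PBS libraries in each genotype. These fold changes depend on the pseudocount, since PBS values lie near 0. The log2 fold change ran from 4.90 to 6.93 in WT and from 5.46 to 8.48 in 6DKO ILC2s over the 21 alternatives. The interaction was 0.57 (limma SE 1.02, adjusted p = 0.939). With the 3 libraries rich in other-cell markers left out, which leaves 1 IL-33 and 2 PBS libraries of 6DKO, the log2 fold change in 6DKO was 5.46 (adjusted p = 0.158, limma). Over the 21 alternatives, the adjusted p in limma was 0.000618 to 0.0338 in WT and 0.000435 to 0.158 in 6DKO ILC2s.

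*Itgae* is also expressed by some dendritic cells and T cells. The dendritic cell list, with 8 genes, summed to 13.5, 50.55 and 99.2 FPKM in WT PBS, 92.9, 46.25 and 112.0 FPKM in 6DKO PBS, 196.9, 208.2 and 326.9 FPKM in WT IL-33 and 566.1, 463.3 and 553.5 FPKM in 6DKO IL-33 libraries. This sum was thus higher under IL-33 in each genotype, and most of it was *H2-Ab1*, an MHC class II gene, at 151.7 to 485.5 FPKM under IL-33. Of the list, 0 genes passed the test in WT, where 2 had an unadjusted p under 0.05 in limma, beside 17.9% of all genes. In 6DKO ILC2s 3 had an unadjusted p under 0.05 in limma, beside 15.4% of all genes. Of these, 1 passed the test, *Ccr7*, a chemokine receptor gene, where 3.14% of all genes tested passed. *Ccr7* was at 0.0845, 0 and 18.4 FPKM in 6DKO PBS and 63.5, 56.6 and 112.4 FPKM in 6DKO IL-33 libraries. In WT its treatments overlapped. *Clec9a* was at 0 in every library and *Flt3* was at most 0.213 FPKM. *Zbtb46*, a transcription factor gene of conventional dendritic cells, was at 0.210, 0.0581 and 3.58 FPKM in WT PBS, 0, 10.3 and 0.0517 FPKM in 6DKO PBS, 2.49, 7.84 and 8.18 FPKM in WT IL-33 and 10.48, 10.46 and 10.68 FPKM in 6DKO IL-33 libraries. Its treatments were apart in 6DKO ILC2s, and the test was not passed in WT (log2 fold change 1.86, limma adjusted p = 0.334) or in 6DKO (log2 fold change 2.34, limma adjusted p = 0.247). *Xcr1*, which marks the dendritic cells with most CD103, was at 0.194 to 2.21 FPKM in WT PBS and 4.63 to 11.4 FPKM in WT IL-33 libraries, with no overlap (log2 fold change 1.94, limma adjusted p = 0.0552). In 6DKO, it was at 5.95 to 10.4 FPKM under PBS and 5.42 to 6.43 FPKM under IL-33 (log2 fold change −0.35, limma adjusted p = 0.799). *Cd4* was at 0 in every library, and 0 of the 8 T cell genes passed the test for IL-33 in either genotype, with 0 at an unadjusted p under 0.05 in limma. Among all genes tested, 4.37% passed in WT and 3.14% in 6DKO ILC2s, and 17.9% and 15.4% had such an unadjusted p. The gate against CD11c, CD3ε and CD4 was meant to remove dendritic and T cells, and their part in the *Itgae* result was not tested.

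*Itgb7*, the β chain that αE and α4 share, was the most abundant of the 9 genes in every group. Its FPKM was 737.5, 826.0 and 842.6 in WT PBS, 549.8, 732.4 and 732.6 in 6DKO PBS, 737.6, 689.7 and 717.2 in WT IL-33 and 623.4, 682.4 and 588.5 in 6DKO IL-33 libraries. The treatments overlapped in both genotypes. The log2 fold change for IL-33 was −0.16 (limma SE 0.13, adjusted p = 0.565) in WT and −0.08 (limma SE 0.13, adjusted p = 0.829) in 6DKO ILC2s. The partner of *Itgae* was thus abundant under PBS, when *Itgae* was near 0.

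*Itgb3* encodes the β3 chain of the vitronectin receptor αvβ3, which is also the platelet chain that pairs with αIIb. Its FPKM was 28.0, 25.8 and 25.7 in WT PBS, 24.7, 26.9 and 28.6 in 6DKO PBS, 65.7, 61.8 and 55.8 in WT IL-33 and 58.3, 66.4 and 63.7 in 6DKO IL-33 libraries. Replicates lay close together, and every IL-33 library was above every PBS library. The ratio of means was 2.31 in WT and 2.35 in 6DKO ILC2s. The log2 fold change was 1.17 (limma SE 0.18, adjusted p = 0.00485) in WT and 1.20 (limma SE 0.18, adjusted p = 0.00628) in 6DKO ILC2s, and the interaction was 0.03 (SE 0.26). Without the 3 marker-rich libraries, the 6DKO value was 1.10 (adjusted p = 0.167, limma), and over all alternatives the adjusted p in limma was 0.00201 to 0.0299 in WT and 0.00273 to 0.167 in 6DKO ILC2s. Of 8 platelet and megakaryocyte genes, 4, *Pf4*, *Ppbp*, *Gp6* and *Treml1*, were at 0 in every library, and the list summed to at most 4.67 FPKM, the level of its most abundant gene *Gp9* in 6DKO PBS replicate 3.

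*Itgav*, the αv chain, was at 9.15, 15.3 and 14.0 FPKM in WT PBS, 11.001, 4.63 and 12.2 FPKM in 6DKO PBS, 10.3, 16.5 and 18.6 FPKM in WT IL-33 and 22.8, 19.6 and 26.4 FPKM in 6DKO IL-33 libraries. In 6DKO ILC2s all IL-33 libraries were above all PBS libraries, while in WT the treatments overlapped. Neither change passed the test, with a log2 fold change of 0.22 (limma SE 0.41, adjusted p = 0.848) in WT and 1.31 (limma SE 0.41, adjusted p = 0.132) in 6DKO ILC2s. The interaction was 1.09 (limma SE 0.57, adjusted p = 0.878), so a difference between genotypes in the response was not shown. Without 6DKO PBS replicate 2, the lowest library, the log2 fold change in 6DKO was 0.92 (adjusted p = 0.197, limma), and over 21 alternatives the adjusted p was 0.0908 to 0.744.

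*Itgb1*, the β chain shared by most matrix-binding integrins, varied widely under PBS. It was at 26.5, 87.7 and 57.3 FPKM in WT PBS and 102.1, 67.0 and 41.4 FPKM in 6DKO PBS libraries. Under IL-33 the values were 88.1, 91.2 and 93.2 FPKM in WT and 119.8, 125.7 and 94.3 FPKM in 6DKO libraries. In WT ILC2s, the mean was 57.2 ± 30.6 FPKM (SD, n = 3) under PBS and 90.8 ± 2.54 FPKM (SD, n = 3) under IL-33, and each IL-33 library was above all PBS libraries, though by as little as 88.1 against 87.7 FPKM. The log2 fold change was 0.81 (limma SE 0.41, adjusted p = 0.336) in WT and 0.77 (limma SE 0.41, adjusted p = 0.408) in 6DKO ILC2s, and neither passed the test.

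*Itga4*, the α4 chain, was among the least abundant members. Its FPKM was 22.7, 10.98 and 6.04 in WT PBS, 11.4, 7.18 and 6.03 in 6DKO PBS, 9.45, 15.6 and 10.7 in WT IL-33 and 16.2, 14.9 and 14.95 in 6DKO IL-33 libraries. The treatments overlapped in WT but not in 6DKO ILC2s. The log2 fold change was 0.01 (limma SE 0.46, adjusted p = 1) in WT and 0.87 (limma SE 0.46, adjusted p = 0.401) in 6DKO ILC2s. Exons of *Itga4* overlap *Cerkl* on the opposite strand, whose FPKM was 0.0889 to 3.94, and the value is uncertain if reads were counted without strand. The same holds for *Itgav*, whose exons overlap the transcript *Gm13684*, which has no value here.

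*Itgal* and *Itgb2* encode the chains of αLβ2, the main integrin for contact between leukocytes. *Itgal* ranged from 77.5 to 108.4 FPKM over the 12 libraries, and its log2 fold change for IL-33 was 0.19 (limma SE 0.15, adjusted p = 0.578) in WT and −0.20 (limma SE 0.15, adjusted p = 0.584) in 6DKO ILC2s. Its 6DKO IL-33 libraries, at 87.3 to 91.4 FPKM, all lay below the 6DKO PBS libraries, at 93.1 to 108.4 FPKM. *Itgb2*, which also pairs with the αM and αX chains of myeloid cells, was at 152.7 to 202.9 FPKM under PBS and 196.2 to 266.3 FPKM under IL-33. Within each genotype its treatments did not overlap, but the log2 fold changes of 0.44 (limma SE 0.15, adjusted p = 0.141) in WT and 0.375 (limma SE 0.15, adjusted p = 0.248) in 6DKO ILC2s missed the threshold. *Itgam* and *Itgax*, which encode αM and αX, were at most 1.26 FPKM in 11 of the 12 libraries and at 10.4 and 2.83 FPKM in 6DKO PBS replicate 2, the library rich in macrophage and NK cell markers.

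Though its libraries overlapped those of *Itgb2* under PBS in both genotypes, *Cd44* had the highest mean after *Itgb7* in every group. It was at 236.3, 210.6 and 180.6 FPKM in WT PBS, 159.6, 158.8 and 227.6 FPKM in 6DKO PBS, 290.7, 289.0 and 309.2 FPKM in WT IL-33 and 270.1, 312.3 and 320.0 FPKM in 6DKO IL-33 libraries. Every IL-33 library was above every PBS library in both genotypes. Log2 fold changes were 0.51 (limma SE 0.17, adjusted p = 0.127) in WT and 0.74 (limma SE 0.17, adjusted p = 0.0401) in 6DKO ILC2s. The interaction was 0.23 (limma SE 0.24, adjusted p = 0.895), so the genotypes were not shown to differ. The call in 6DKO was lost in 12 of 21 alternatives, over which the adjusted p was 0.0133 to 0.673. Among these were array weights (log2 fold change 0.66, adjusted p = 0.0925), a fit of the 6DKO groups alone (log2 fold change 0.74, adjusted p = 0.110), the omission of the 3 marker-rich libraries (log2 fold change 0.50, adjusted p = 0.673), and that of 6DKO PBS replicate 1 or 2, any WT IL-33 library or any 6DKO IL-33 library (adjusted p = 0.0653 to 0.150).

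**Figure D2:**
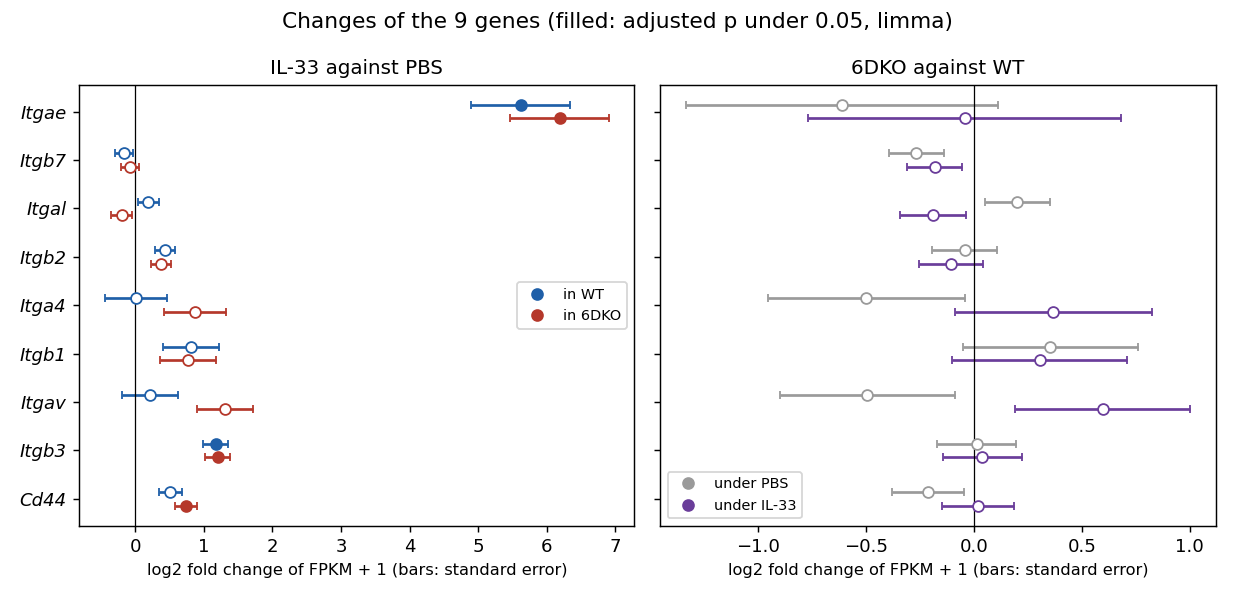
Log2 fold changes of FPKM + 1 of the 9 genes for IL-33 against PBS in each genotype (left) and for 6DKO against WT under each treatment (right), with standard errors from limma and filled points for an adjusted p under 0.05. *Itgae* stands at 5.62 and 6.19 and *Itgb3* at 1.17 and 1.20 for IL-33, and all genotype differences lie between −0.61 and 0.60.

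To ask whether the loss of Sema6D altered these genes, the genotypes were compared under each treatment. Log2 differences of 6DKO from WT ranged from −0.19 to 0.60 under IL-33 and from −0.61 to 0.35 under PBS, and none passed the test. For 4 members the IL-33 libraries of the genotypes did not overlap, where 14.1% of all genes tested did not overlap. *Itgav* and *Itgb1* were higher in 6DKO, with log2 differences of 0.60 (SE 0.41) and 0.31 (SE 0.41), and *Itgal* and *Itgb7* were lower, with −0.19 (SE 0.15) and −0.18 (SE 0.13). Each of these 4 had an adjusted p of 1 in limma. Under PBS, 1 member, *Itgb7*, did not overlap between genotypes, against 8.56% of all genes, with a log2 difference of −0.27 (limma SE 0.13, adjusted p = 0.412). The standard errors leave room for differences of that size, and a missed threshold does not show that the genotypes were alike.

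Each gene was also tested over both genotypes at once, with the treatment labels permuted within genotype. This two-sided exact permutation test has 400 assignments and cannot give a p below 0.005. *Itgae*, *Itgb3*, *Cd44* and *Itgb2* each reached p = 0.005 in the exact test, with mean log2 differences of 5.90, 1.19, 0.62 and 0.41. *Itgb1* and *Itgav* had p = 0.025 in the exact test, with 0.79 and 0.76, and for *Itgav* the p was 0.05 to 0.06 when WT PBS replicate 1, WT IL-33 replicate 2 or 3 or any 6DKO IL-33 library was left out. *Itga4* (exact p = 0.205), *Itgb7* (exact p = 0.16) and *Itgal* (exact p = 0.955) had mean differences of 0.44, −0.12 and −0.01. The exact p was 0.02 for *Itgb7* without 6DKO PBS replicate 1 and 0.025 for *Itga4* without WT PBS replicate 1. With genotype labels permuted within treatment, *Itgb7* was lower in 6DKO by a mean log2 difference of −0.22 (exact p = 0.005), and the other 8 genes had exact p-values of 0.29 to 0.945. The *Itgb7* difference was −0.15 (exact p = 0.17) after quantile normalization. These 18 tests were not adjusted for their number.

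Ordered by mean FPKM in WT PBS libraries, the members ran *Itgb7*, *Cd44*, *Itgb2*, *Itgal*, *Itgb1*, *Itgb3*, *Itga4*, *Itgav* and *Itgae*, from 802.0 to 2.33 FPKM. In that order the libraries of *Cd44* and *Itgb2*, of *Itgal* and *Itgb1*, of *Itgb1* and *Itgb3* and of *Itga4* and *Itgav* overlapped, so their places were not distinct. In 6DKO PBS libraries the order differed only in the places of *Itgav* and *Itga4*, which overlapped there too. Under IL-33, *Itgae* moved from the last place to the fourth in both genotypes, with 134.6 ± 27.6 FPKM in WT and 130.4 ± 23.7 FPKM in 6DKO ILC2s (mean ± SD, n = 3). It then lay above *Itgal*, which had 101.3 ± 5.86 FPKM in WT and 88.8 ± 2.33 FPKM in 6DKO ILC2s (mean ± SD, n = 3), with no overlap. In 6DKO IL-33 libraries *Itgae* overlapped *Itgb1*, at 113.3 ± 16.7 FPKM (SD, n = 3). *Itgav* and *Itga4* took the last places in both IL-33 groups.

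Because FPKM is per length, the α and β chains of a heterodimer can be set side by side as a log2 ratio of FPKM + 1. The ratio of *Itgae* to *Itgb7* was −9.53, −7.54 and −7.54 in WT PBS and −9.11, −9.52 and −7.02 in 6DKO PBS libraries. *Itgae* was listed at 0 in WT PBS replicate 1 and 6DKO PBS replicates 1 and 2. There the added 1 and *Itgb7* alone set the ratio. Under IL-33 it was −2.16, −2.65 and −2.45 in WT and −2.58, −2.19 and −2.08 in 6DKO libraries. The mean of *Itgb7* thus remained 5.31 times that of *Itgae* in WT and 4.84 times in 6DKO ILC2s under IL-33. The ratio of *Itga4* to *Itgb7* averaged −5.99 ± 0.98 (SD, n = 3) in WT PBS, −6.22 ± 0.66 in 6DKO PBS, −5.82 ± 0.40 in WT IL-33 and −5.27 ± 0.13 in 6DKO IL-33 libraries, so under IL-33 the transcript of αE exceeded that of α4, the other partner of β7. The ratio of *Itgal* to *Itgb2* stayed between −0.64 and −1.47 in all 12 libraries, and that of *Itgav* to *Itgb1* averaged between −1.95 and −2.79 in the 4 groups. The ratio of *Itga4* to *Itgb1* was −0.22, −2.89 and −3.05 in WT PBS libraries, so its first library stood apart, and averaged −2.80 to −2.90 in the other 3 groups. For *Itgav* and *Itgb3*, the mean of *Itgb3* was 2.07 times that of *Itgav* in WT PBS, 2.88 times in 6DKO PBS, 4.03 times in WT IL-33 and 2.74 times in 6DKO IL-33 libraries. These ratios are descriptions of transcripts and were not tested.

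**Figure D3:**
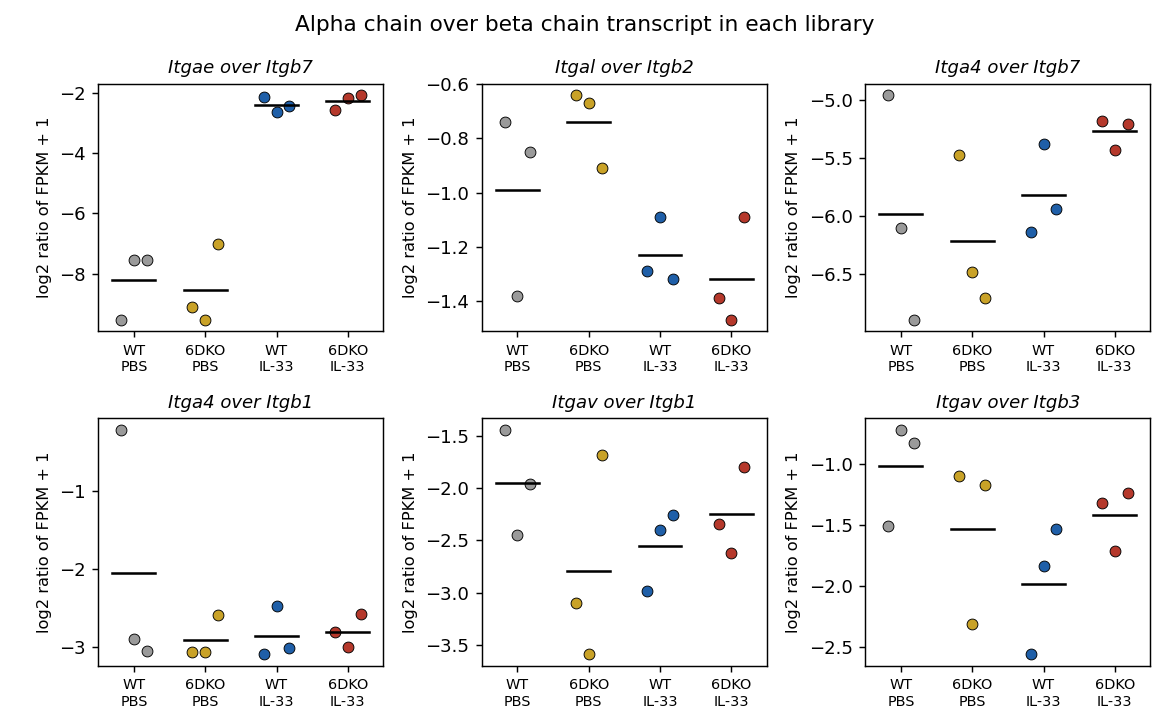
Log2 ratio of the α chain to the β chain transcript (FPKM + 1) for 6 heterodimers that the members can form, in each of the 12 libraries, with lines at the group means and an axis of its own for each pair. Only the ratio of *Itgae* to *Itgb7* lies apart between treatments by several log2 units, at −7.02 or lower under PBS and −2.08 to −2.65 under IL-33. Where *Itgae* was listed at 0, the added 1 and *Itgb7* alone set that ratio.

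Among the other 18 integrin chains, the mean reached 0.5 FPKM for 5 of them, and *Itgad* was at 0 in every library. By mean over the 12 libraries the most abundant were *Itga3* and *Itga6*, which encode laminin-binding chains, with at most 9.20 and 3.501 FPKM in a library, while *Itgam* had the highest single value, 10.4 FPKM in 6DKO PBS replicate 2. For IL-33, 0 of 18 passed the test in WT, where 1 had an unadjusted p under 0.05 in limma, beside 17.9% of all genes. In 6DKO ILC2s 1 was higher and 1 was lower, where 3.14% of all genes tested passed. The median log2 fold change was 0.00 in both. The higher gene was *Itgb5*, an RGD-binding chain that pairs with αv, at 0 in each 6DKO PBS library and at 2.203, 1.53 and 2.29 FPKM in the 6DKO IL-33 libraries (log2 fold change 1.58, adjusted p = 0.0180, limma). Over 21 alternatives its log2 fold change was 0.82 to 4.38 and its adjusted p 0.00629 to 0.200. The call was lost after quantile normalization (log2 fold change 0.82, adjusted p = 0.200), with array weights (adjusted p = 0.0949), without the marker-rich libraries (adjusted p = 0.142) and without 6DKO IL-33 replicate 1 or 3 (adjusted p = 0.0534 to 0.0566). The lower gene was *Itga5*, the fibronectin-binding α5 chain, at 5.51, 2.73 and 1.27 FPKM in 6DKO PBS and 0.131, 0.152 and 0 FPKM in 6DKO IL-33 libraries (log2 fold change −1.80, adjusted p = 0.0221, limma), and without any of the 6DKO IL-33 libraries its adjusted p was 0.0714 to 0.0867, within 0.00627 to 0.314 over all alternatives. *Itga5* was at 0 in all WT PBS libraries, and the genotypes differed under PBS by 1.93 (adjusted p = 0.0446, limma). In a fit of the PBS groups alone the adjusted p for that difference was 0.708, and it was 0.0645 to 0.0872 without WT PBS replicate 1 or 2 or any IL-33 library, within 0.0105 to 0.708 over all alternatives. In data simulated with normal noise and the spread of 3 libraries a group, genes without a difference passed between genotypes under PBS. They also passed too often for IL-33 against PBS. The simulation did not model values listed at 0 and gives no rate of false calls for the real libraries. The *Itga5* call between genotypes, and IL-33 calls with an adjusted p near 0.05, may be false, which was not tested.

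Of 31 genes that switch integrins on or link them to actin, 26 had a mean of at least 0.5 FPKM, led by *Rap1b*, a small GTPase of integrin activation, at 545.3 to 1029 FPKM, and *Skap1*, an adaptor, at 201.9 to 379.5 FPKM. None passed the test in WT, where 5 had an unadjusted p under 0.05 in limma, beside 17.9% of all genes. In 6DKO ILC2s 1 was higher, where 3.14% of all genes tested passed. The medians were 0.00 in WT and 0.01 in 6DKO ILC2s. The log2 fold changes of the list ran from −1.29 to 2.27 in WT and from −2.0 to 2.07 in 6DKO ILC2s, where 6 had an unadjusted p under 0.05 in limma, beside 15.4% of all genes. The 6DKO treatments were apart for 6 genes of the list as higher and 4 as lower, beside 22.5% of all genes. The gene that passed was *Cytip*, which encodes a cytohesin-binding protein, at 130.8, 46.8 and 75.6 FPKM in 6DKO PBS and 188.5, 192.0 and 179.0 FPKM in 6DKO IL-33 libraries (log2 fold change 1.26, adjusted p = 0.0484, limma). That call was lost in 15 of 21 alternatives, among them 11 of the 12 with a library left out, all but 6DKO PBS replicate 1 (adjusted p = 0.0564 to 0.156, and 0.00479 to 0.469 over all alternatives).

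Of 14 CD44 partners and hyaluronan enzymes, 1 was higher with IL-33 in each genotype and none was lower. Among all genes tested, 4.37% passed in WT and 3.14% in 6DKO ILC2s. The medians of the list were 0.25 in WT and 0.26 in 6DKO ILC2s. The gene that passed was *Cd74*, the MHC class II invariant chain, which associates with CD44 at the cell surface. It was at 8.34, 55.2 and 66.75 FPKM in WT PBS, 166.5, 23.1 and 103.3 FPKM in 6DKO PBS, 284.6, 337.4 and 607.6 FPKM in WT IL-33 and 936.1, 607.0 and 750.6 FPKM in 6DKO IL-33 libraries. Log2 fold changes were 3.56 (adjusted p = 0.0280, limma) in WT and 3.33 (adjusted p = 0.0487, limma) in 6DKO ILC2s. Over 21 alternatives they were 2.66 to 4.085 in WT and 2.51 to 3.91 in 6DKO ILC2s. The lowest value in 6DKO ILC2s was that without 6DKO PBS replicate 2. In WT that call was lost in 7 of 21 alternatives (adjusted p = 0.0146 to 0.124 over all), among them those without WT PBS replicate 1, any WT IL-33 library or 6DKO IL-33 replicate 3 (0.0508 to 0.124). In 6DKO ILC2s it was lost in 14 of 21 (adjusted p = 0.0172 to 0.523 over all), among them those without WT PBS replicate 2, 6DKO PBS replicate 2 or 3 or any IL-33 library (0.0524 to 0.173). For *H2-Ab1* of the dendritic cell list, the treatments were also apart in both genotypes, with log2 fold changes of 3.40 (limma adjusted p = 0.0905) in WT and 2.845 (limma adjusted p = 0.1915) in 6DKO ILC2s, which did not pass the test. *Msn*, which links CD44 to actin, was at 230.3 to 379.0 FPKM in the 12 libraries and passed no test.

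Among 29 selectins and other adhesion receptors, IL-33 raised 1 and lowered 1 in WT, and raised 1 and lowered 2 in 6DKO ILC2s. Beside this, 4.37% of all genes tested passed in WT and 3.14% in 6DKO ILC2s. The medians of the list were 0.02 and 0.07. *Cd48*, a ligand of the receptors CD2 and 2B4, was at 39.7 to 116.3 FPKM under PBS and 254.1 to 301.6 FPKM under IL-33, with log2 fold changes of 1.79 (adjusted p = 0.0104, limma) in WT and 1.88 (adjusted p = 0.0116, limma) in 6DKO ILC2s. The latter had an adjusted p of 0.0512 without 6DKO IL-33 replicate 3, and the former 0.0811 in a fit of the WT groups alone, within 0.000499 to 0.355 and 0.00357 to 0.0811 over all alternatives. *Cd24a*, a mucin-like surface protein, was at 85.0, 94.5 and 63.9 FPKM in WT PBS and 0, 1.38 and 0.760 FPKM in WT IL-33 libraries (log2 fold change −5.65, adjusted p = 7.96e-05, limma). In 6DKO ILC2s it was at 39.0, 60.9 and 28.6 FPKM under PBS and 4.89, 4.63 and 6.90 FPKM under IL-33 (log2 fold change −2.71, adjusted p = 0.00636, limma), where the call was lost without the marker-rich libraries, at a log2 fold change of −2.55, and with a pseudocount of 0.1 (adjusted p = 0.00322 to 0.183 over 21 alternatives). *Epcam*, a homophilic adhesion molecule, was lower in 6DKO ILC2s (log2 fold change −3.73, adjusted p = 0.0208, limma), from 54.0, 22.3 and 40.0 FPKM to 8.43, 0 and 1.37 FPKM. In WT it was at 38.1, 33.8 and 16.4 FPKM under PBS and 3.74, 4.62 and 8.71 FPKM under IL-33, also with no overlap (log2 fold change −2.17, limma adjusted p = 0.139). Over 21 alternatives the log2 fold change of *Epcam* in 6DKO ILC2s was −5.08 to −2.33. For *Epcam* in 6DKO ILC2s, the adjusted p was 0.0507 to 0.0876 without 6DKO PBS replicate 1 or 3 or 6DKO IL-33 replicate 2 or 3 (0.00714 to 0.260 over all alternatives). *Cd82*, a tetraspanin, and *Selplg*, the P-selectin ligand, were the most abundant, at 665.1 to 1056 and 501.9 to 666.7 FPKM.

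Of 14 integrin ligands, 1 was higher with IL-33 in WT and 2 in 6DKO ILC2s, and none was lower. The shares passing among all genes tested were 4.37% and 3.14%. The medians of the list were 0.03 and 0.78. *Vcam1*, a ligand of α4β1, was at or under 0.207 FPKM in the PBS libraries and at 2.055 to 9.385 FPKM in the IL-33 libraries, with log2 fold changes of 2.204 (adjusted p = 0.0217, limma) in WT and 2.18 (adjusted p = 0.0292, limma) in 6DKO ILC2s. The call was lost in 5 of 21 alternatives in WT and in 9 of 21 in 6DKO ILC2s, there also without 6DKO PBS replicate 1 or 3 or any 6DKO IL-33 library (adjusted p = 0.0565 to 0.1035). Over all alternatives the adjusted p for *Vcam1* was 0.00844 to 0.200 in WT and 0.00806 to 0.280 in 6DKO ILC2s. *Tgfb3*, whose latent form binds αv integrins, was at 0 in each 6DKO PBS library and at 3.33, 5.92 and 10.3 FPKM under IL-33 (log2 fold change 2.80, adjusted p = 0.0480, limma), a call lost in 13 of 21 alternatives, among them each omission of a 6DKO or a WT IL-33 library (adjusted p = 0.0626 to 0.178, and 0.0110 to 0.670 over all). *Icam2* and *Icam1*, ligands of αLβ2, were at 29.05 to 149.4 and 28.9 to 95.5 FPKM and passed no test. Without the 3 marker-rich libraries, every call of these 5 lists was lost except that of *Cd24a* in WT, with adjusted p from 0.0614 for *Cd74* in WT to 0.670 for *Tgfb3* in 6DKO ILC2s. In 6DKO ILC2s the log2 fold change was then −2.33 for *Epcam*, 2.12 for *Tgfb3*, 0.915 for *Cytip*, 2.83 for *Cd74*, 1.80 for *Cd48* and 2.42 for *Vcam1*. With all libraries it was −3.73, 2.80, 1.26, 3.33, 1.88 and 2.18 for the same genes, in that order. For *Itgb5* and *Itga5* it was 1.68 and −1.76 without these libraries. All 3 are 6DKO libraries, so the WT fold changes could not differ. Between genotypes under either treatment, and for the interaction, 0 genes of the last 4 lists passed in limma. Among all genes, 0.00871% passed under IL-33, 0.619% under PBS and 0.0261% for the interaction. The number with an unadjusted p under 0.05 in limma was 0 to 5 in a list. The 5 were among the 31 genes of integrin activation and linkage to actin, under PBS. There 12.998% of all genes had such a p, against 1.98% under IL-33 and 5.74% for the interaction.

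The genes with profiles closest to the 3 members that passed a test were found among 7411 genes as those with the smallest root mean square difference over the 12 libraries, in log2(FPKM + 1) centred on each gene's mean. For *Itgae* they were *Aqp3*, a water and glycerol channel, at 1.03, and *Dpp7*, a peptidase, at 1.065. *Dpp7* was at 0 in all 6 PBS libraries and at 16.0 to 28.5 FPKM under IL-33. For *Itgb3* they were *S100a11*, a calcium-binding protein, at 0.13, and *Abhd8* at 0.23. *S100a11* was at 1111 to 1411 FPKM under PBS and 2654 to 3256 FPKM under IL-33. For *Cd44* they were *Lsp1*, a leukocyte actin-binding protein, at 0.14, and *Adrbk1*, a kinase of G protein-coupled receptors, at 0.17.

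By the gene models of GENCODE vM21 (GRCm38, also called mm10), all 9 members are protein-coding genes. *Itgae* lies on chromosome 11 from 73090583 to 73147446 on the plus strand, and *Itgb3* on the same chromosome from 104608000 to 104670476 on the plus strand. *Cd44* lies on chromosome 2 from 102811141 to 102901665 on the minus strand, and *Itgb7* on chromosome 15 from 102215995 to 102231944 on the minus strand. *Sema6d* is also on chromosome 2, 21.2 Mb from *Cd44*, 40.3 Mb from *Itgav* and 44.8 Mb from *Itga4*, and the part that DNA near the deleted gene has in their values was not tested. Promoter sequences from RefSeq (GRCm38.p6), 250 bases before to 50 after the gene's start, were at hand for 5 of the 9 members and not for *Itgae*, *Itgb3*, *Itgal* or *Itgb2*. Those of *Itgb7* and *Cd44* are shown as the promoters of the 2 most abundant members, of which *Cd44* passed the test for IL-33 in 6DKO ILC2s and *Itgb7* did not. Capitals mark matches on either strand to GATAA, the core of sites for GATA factors, TGTGGT, the core for RUNX factors, or TGANTCA, the AP-1 site, which were found in 25.4%, 16.8% and 7.81% of the 32851 promoters in the table. The *Cd44* promoter held 1 match, to GATAA, and the *Itgb7* promoter held 0. A match is a run of letters and not a shown binding site.
*Cd44*, chr2:102901616-102901915, minus strand: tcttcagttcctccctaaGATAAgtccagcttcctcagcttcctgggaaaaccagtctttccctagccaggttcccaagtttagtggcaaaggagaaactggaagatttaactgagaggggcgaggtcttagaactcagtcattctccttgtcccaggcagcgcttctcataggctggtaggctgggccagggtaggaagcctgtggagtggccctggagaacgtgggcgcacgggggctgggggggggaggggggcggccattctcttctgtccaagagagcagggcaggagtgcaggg
*Itgb7*, chr15:102231886-102232185, minus strand: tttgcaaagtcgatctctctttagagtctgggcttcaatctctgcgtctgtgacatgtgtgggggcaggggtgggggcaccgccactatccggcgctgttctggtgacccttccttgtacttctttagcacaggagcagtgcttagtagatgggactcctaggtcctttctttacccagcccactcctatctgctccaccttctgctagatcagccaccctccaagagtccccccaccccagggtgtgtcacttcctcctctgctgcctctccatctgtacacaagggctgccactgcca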

How the data were processed

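RNA of sorted lung ILC2s was sequenced as 75-base single-end reads. The authors deposited FPKM values for 24346 genes in each of 12 libraries. The paper names the TruSeq Stranded kit, TopHat 2.0.13 and Cuffnorm 2.2.1, whereas the labels name SMART-Seq HT and Nextera kits and the submitters' processing notes TopHat2 2.1.1 and Cuffdiff 2.2.1. Reads were mapped to mm10, and the annotation is not given in the sources used here. Groups and replicate numbers were taken from the labels, and no pair of libraries held identical values (0 pairs).

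From these values, log2(FPKM + 1) was fitted with limma 3.58.1 in R 4.3.3 (lmFit on the means of 4 groups, eBayes with a trend, 8 residual degrees of freedom) for genes that averaged 0.5 FPKM or more or were listed, with Benjamini-Hochberg adjustment. Adding 1 makes fold changes of low genes too small. Exact permutation tests, ratios and promoter matches were computed with Python 3.11.15, numpy 2.4.6 and pandas 2.3.3. On simulated data, with normal noise and the spread of each gene in the 3 libraries of each group, the limma fit recovered the fold changes. Unchanged genes passed more often than the threshold allows wherever PBS libraries were compared, most of all between genotypes under PBS. That excess depends on these settings and is not a rate for the real libraries. The fit shares a variance over all groups, which the PBS libraries exceed, and fits of only the groups compared do not mix PBS with IL-33 libraries in the genotype comparisons. Read totals are not part of FPKM, so depth is known only relative to another library, and no counting interval is given.

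The members and gene lists were chosen with earlier results of these data known. Named in the text are all members, from each adhesion list up to 4 higher and 4 lower genes passing the test in a comparison and the 2 most abundant, from each marker list of another cell type the most abundant gene and those at 0 throughout, and for each member passing a test the 2 genes nearest in profile among those averaging 5 FPKM or more. *Cerkl*, *Psmd13*, *Itgam*, *Itgax*, *Flt3*, *Xcr1*, *Zbtb46*, *Lyz2*, *Ccr7*, *Cd68*, *Cd3e*, *Cd3d*, *Cd5*, *Cd8a*, *Cd8b1*, *Foxp3* and *Id2* were named after their values were seen. Tests of the ILC2 markers are not reported here. Marker lists covered 12 other cell types. The alternatives were quantile normalization, median ratio scaling, 0.1 as the pseudocount, all genes or only those averaging 2 FPKM or more, array weights, a replicate block, separate fits of each pair of groups and the omission of each library. Leaving out the 3 libraries in which macrophage, NK cell and ILC1, and epithelial markers summed to over 100 FPKM was chosen after seeing the data. *Ly6g*, *Trac*, *Trbc1*, *Trbc2*, *Ighm* and *Iglc1* have no values in the files and were not analysed here, nor were amino acid sequences.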

Additional observations from a re-analysis of the deposited data

Results flagged for a closer look

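*Cd24a* was singled out because its difference between genotypes pointed in opposite directions under the 2 treatments, with no overlap in either. Under PBS, the 6DKO libraries, at 28.6 to 60.9 FPKM, all lay below the WT libraries, at 63.9 to 94.5 FPKM, and under IL-33 the 6DKO libraries, at 4.63 to 6.90 FPKM, all lay above the WT libraries, at 0 to 1.38 FPKM. The log2 difference of 6DKO from WT was −0.95 under PBS (adjusted p = 0.360, limma) and 1.99 under IL-33 (adjusted p = 0.445, limma). The interaction was 2.94 (limma SE 0.59, adjusted p = 0.274), so the difference between the treatments did not pass the test over all genes.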

How the results depend on the processing

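The number of members passing the limma test was 2 in WT for IL-33 under all 21 alternatives, and 0 for both genotype comparisons (21 alternatives each) and the interaction (20). In 6DKO for IL-33 it was 3 in 9 alternatives, 2 in 11 and 0 in the 1 that left out the marker-rich libraries, chosen after seeing the data, which keeps 1 IL-33 and 2 PBS libraries there and assumes that the lone library varies like the other groups. *Itgae* and *Itgb3* passed in WT in all 21 (adjusted p at most 0.0338 and 0.0299) and in 6DKO in all but that 1. In fits of only the groups compared, the adjusted p was 0.0146 in WT and 0.0231 in 6DKO for *Itgae*, and 0.0155 and 0.0235 for *Itgb3*. The replicate numbers were not used to pair the libraries in the main fit. Deviations of same-numbered libraries correlated at −0.047 to 0.045 over 18 pairs, 0 of them over 0.1. This does not exclude that same-numbered libraries were handled together. With the replicate block, 2 members passed in WT and 2 in 6DKO for IL-33, where *Cd44* had an adjusted p of 0.0794, and 374 and 236 genes passed in all, against 502 and 360 without it, 0 against 1 and 8 against 71 between genotypes under IL-33 and PBS. Of the genes passing for IL-33, 62.5% were higher in WT and 61.9% in 6DKO, against 51.0% and 50.2% after quantile normalization. Between genotypes under IL-33, 60 genes passed with array weights against 1, and under PBS 1 passed with array weights and 1 in a fit of the PBS groups alone, against 71.

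Several signs turned, and the cause was not tested. With each library left out in turn, the log2 change for IL-33 in WT was −0.41 to 0.46 for *Itga4*. For 6DKO against WT under IL-33 it was −0.18 to 0.11 for *Itgae*, −0.023 to 0.093 for *Itgb3* and −0.028 to 0.094 for *Cd44*, and under PBS −0.15 to 0.057 for *Itgb2*, −0.11 to 0.74 for *Itgb1* and −0.036 to 0.067 for *Itgb3*. The interaction was −0.053 to 0.15 for *Itgb7*, −0.16 to 0.042 for *Itgb2*, −0.43 to 0.41 for *Itgb1* and −0.035 to 0.08 for *Itgb3*. Over both genotypes, the mean difference turned in sign for *Itgal*, at −0.052 to 0.033. It did not turn for *Itgb7*, at −0.19 to −0.087, *Itga4*, at 0.23 to 0.67, or *Itgav*, at 0.57 to 0.88. Over both treatments the mean difference was −0.041 to 0.045 for *Itgal*, −0.27 to 0.16 for *Itga4*, −0.066 to 0.25 for *Itgav* and −0.005 to 0.053 for *Itgb3*. Without the marker-rich libraries, 6DKO against WT under IL-33 was −0.063 for *Itgb3* and −0.13 for *Cd44*, and the interaction −0.16 for *Itgae*, 0.056 for *Itgb1*, −0.069 for *Itgb3* and −0.008 for *Cd44*. Quantile normalization gave −0.022 for *Itgb3* under PBS and interactions of 0.019 for *Itgb2* and 0.016 for *Itgb1*. For *Itgb7* over both treatments it gave −0.15, weaker but of the same sign. Array weights gave interactions of 0.135 for *Itgb1* and −0.015 for *Itgb3*. The lower depth and wider spread of the PBS libraries limit the genes near 0 there, *Itgae* among them.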

Other observations

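The neutrophil list (6 genes) summed to 5.67 to 12.95 FPKM, led by *Cxcr2*, with *S100a8* and *S100a9* at 0 in every library. The eosinophil list (6 genes) summed to 0 to 9.03 FPKM in 11 libraries and to 39.75 FPKM, all *Ear2*, in 6DKO PBS replicate 2, with *Prg2* and *Epx* at 0 throughout. The mast cell and basophil list (6 genes) summed to 42.9 to 89.3 FPKM under PBS and 17.8 to 41.9 FPKM under IL-33, nearly all *Cpa3*, with *Mcpt8* and *Mcpt4* at 0 throughout. *Cpa3* was lower with IL-33 in WT (log2 fold change −1.54, adjusted p = 0.0391, limma). The B cell list (5 genes) summed to 0 to 26.9 FPKM, led by *Cd79b*, with *Ms4a1* and *Pax5* at 0 throughout. *Cd79b* was higher with IL-33 in WT (log2 fold change 4.08, adjusted p = 0.0260, limma). The endothelial list (7 genes, *Tek* at 0 throughout) summed to 0 to 4.595 FPKM in 11 libraries and to 34.2 FPKM, led by *Egfl7* at 21.2 FPKM, in 6DKO PBS replicate 2. The mesenchymal list (7 genes) summed to at most 4.51 FPKM, also in that library, led by *Col3a1*. Among the macrophage genes, *Cd68* was higher with IL-33 in 6DKO ILC2s (log2 fold change 2.08, adjusted p = 0.0184, limma).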
